A study of Homo sapiens with 6 samples.

Results

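Histone lysine methyltransferases and demethylases write and erase methyl groups on histone tails, and the genes described here were chosen by name. The set holds protein-coding genes whose symbol starts with KMT, KDM, SETD, NSD, EHMT, SUV39H or PRDM followed by a digit, together with EZH1, EZH2, EED, SUZ12 and DOT1L and without PRDM1. It comprises 63 of the 58735 genes in the deposited table. Of these, 50 reached a mean of at least 1 FPKM (fragments scaled to gene length and to library size) and were tested, and 13 did not. SETDB1 and SETDB2 carry a letter after the prefix and were counted with the related enzymes instead, and NSDHL, a sterol enzyme, was left out for the same reason. The level of KDM5D is not given here, although it was tested and is included in the counts.

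All libraries came from Raji, a human B-cell line derived from a Burkitt lymphoma, carrying a GFP and firefly luciferase reporter. Cells were kept overnight at 37 °C with either the solvent DMSO or 1 nM bryostatin-1, a marine natural product and activator of protein kinase C. There were 3 poly(A)-enriched libraries per treatment, 6 in all, with 19405370 to 24468270 reads on genes. The labels do not state whether replicates were separate cultures, so p-values cover only the spread among these libraries, and that spread may be technical. The B-cell markers MS4A1, CD79A, CD79B, PAX5 and CD22 had means of 44.0 to 465 FPKM. Of the other cell types' markers, CD2, NCAM1, KLRD1, EPCAM and COL1A2 were at 0 in every library, and NKG7 at 2.87 FPKM was the highest. DMSO replicate 3 stood apart from its group. Over all tested genes its reads were nearer to bryostatin replicates 2 and 3 (chi-square per gene 25.3 and 29.6) than to DMSO replicates 1 and 2 (45.9 and 47.3). Results are therefore also given without it.

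Methylation of histone H3 at lysine 4 and lysine 36 marks promoters, enhancers and transcribed gene bodies, whereas methylation at lysine 9 and lysine 27 marks heterochromatin and Polycomb-repressed genes. Methyltransferases of the SET-domain family add these groups, and DOT1L methylates lysine 79. Demethylases of the KDM1 class use flavin and the JmjC-domain enzymes use iron and 2-oxoglutarate to remove methyl groups. In germinal centre B cells, from which Burkitt lymphoma is thought to arise, EZH2 maintains the proliferative state, and KMT2D and EZH2 are recurrently mutated in lymphomas of that origin.

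E2F factors drive genes of DNA replication, and EZH2 is a known E2F target, so promoter sequences were searched for the E2F words TTTGGCGC, TTTCCCGC, TTTGCCGC and TTTCGCGC on both strands. The windows ran from 250 bases before to 50 bases after each RefSeq gene start (GRCh38.p14), and 55 of the 63 genes matched by symbol, with 82 windows. A word was present in 6 member windows, 7.32%, against 3.31% of all 35116 windows. The windows compared were not matched for base composition or for expression, so the shares are not like for like. The matches shown are those of the lysine 27 and lysine 36 enzymes and of KDM1B, so that the words can be set beside the transcript values, with the match in capitals, read 5′ to 3′ on the gene's strand. PRDM7, with 3 reads over all libraries, held the other match.
EZH2 (chr7:148884272-148884330, minus strand): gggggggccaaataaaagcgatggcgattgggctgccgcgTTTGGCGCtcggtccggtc
SUZ12 (chr17:31936778-31936865, plus strand): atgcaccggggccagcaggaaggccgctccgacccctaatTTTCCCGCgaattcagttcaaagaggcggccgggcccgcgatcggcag
EZH1 (chr17:42745108-42745195, minus strand): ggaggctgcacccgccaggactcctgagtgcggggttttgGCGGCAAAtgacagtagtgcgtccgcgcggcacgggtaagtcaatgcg
NSD2 (chr4:1871276-1871363, plus strand): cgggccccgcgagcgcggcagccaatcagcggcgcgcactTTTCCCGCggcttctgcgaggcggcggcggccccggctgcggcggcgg
KDM1B (chr6:18155172-18155253, plus strand): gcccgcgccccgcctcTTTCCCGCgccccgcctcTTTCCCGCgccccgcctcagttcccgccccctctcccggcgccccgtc
In EZH2 the word began at base 2 after the start, and in NSD2 77 bases before it. In EZH1 the word lay on the opposite strand, and KDM1B held 2 copies. A match is a run of letters and not a measured binding site. Tested genes with a match had log2 changes on both sides of 0, from 0.32 in EZH2 and NSD2 to -0.15 in KDM1B, with SUZ12 at 0.06 and EZH1 at -0.01.

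The question was whether transcripts of these enzymes differed between cells given bryostatin and cells given solvent. No member passed an adjusted p of 0.05 in limma, with or without voom weights, where 0% of the 11071 tested genes passed, and the smallest adjusted p among members was 0.216. At an unadjusted p under 0.05 there were 4 members at higher and 3 at lower levels with bryostatin, against 10.5% and 7.18% of all tested genes in those directions. A share of 4 and 3 in 50 is near or below that background. With voom precision weights the counts were 5 and 3, and with quantile normalisation 3 and 6. For all genes the split was 1159 higher and 795 lower as deposited, 852 and 1100 with TPM scaling, and 893 and 1017 with quantile normalisation. The groups did not overlap in 4 members that were higher (12.9% of all tested genes) and in 5 that were lower (10.7%). Log2 changes of members, on the scale of log2(FPKM + 1), ran from -0.49 to 0.46, with a median of -0.025 against 0.018 for all tested genes. On that scale the 95% interval lay within 2-fold either way for all 50 tested members, and within 1.5-fold for 44 of them. The added 1 FPKM shrinks changes of genes at low levels, so these limits are not those of FPKM itself. With 0.1 added instead, KMT2C went from -0.49 to -0.59 and EED from 0.44 to 0.51.

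**Figure D1:**
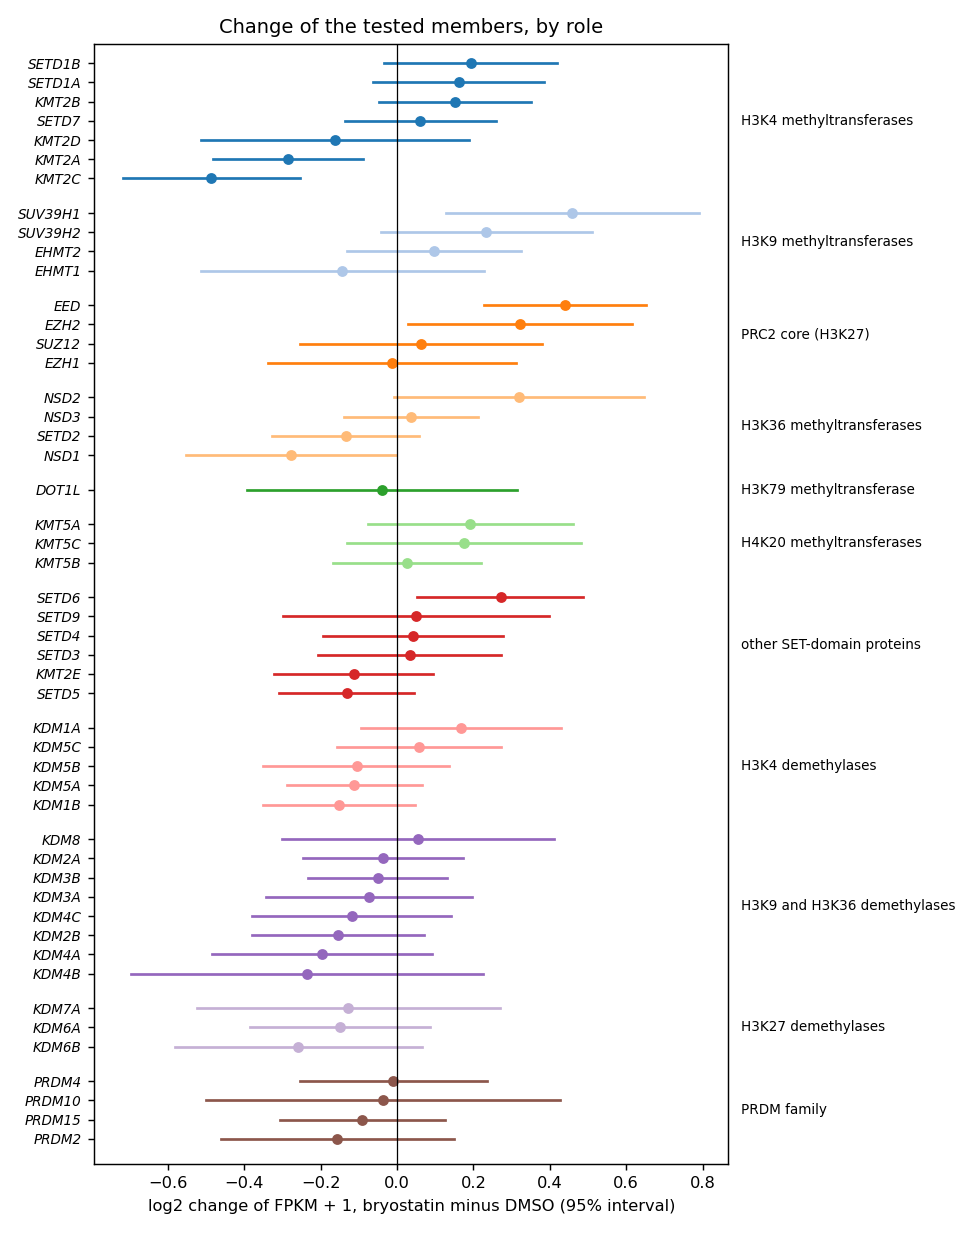
Log2 change of FPKM + 1 (bryostatin minus DMSO, points) with its 95% interval (lines) for the tested members other than KDM5D, ordered by role. EED and SUV39H1 lie farthest to the right, at 0.44 and 0.46, and KMT2C farthest to the left, at -0.49.

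Polycomb repressive complex 2, which methylates lysine 27 of histone H3, consists of a catalytic subunit, EZH2 or EZH1, with the scaffold proteins SUZ12 and EED. EED, the subunit that binds trimethylated lysine 27, was at 4.30, 4.85 and 4.99 FPKM in DMSO replicates 1 to 3 and at 7.32, 6.26 and 6.67 FPKM in bryostatin replicates 1 to 3. Each bryostatin library lay above each DMSO library, with means of 4.71 ± 0.369 and 6.75 ± 0.533 FPKM (SD, n = 3). The log2 change was 0.44 with a standard error of 0.09 (adjusted p = 0.216 in limma). EED lies on chromosome 11 from 86244544 to 86278813 (hg38).

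EZH2, the main catalytic subunit of dividing cells, was at 11.9, 15.4 and 15.7 FPKM in DMSO and 19.5, 16.6 and 18.1 FPKM with bryostatin. Here too the groups did not overlap, but the gap between the highest DMSO and the lowest bryostatin library was small, and the log2 change was 0.32 with a standard error of 0.12 (adjusted p = 0.257 in limma). It was 0.20 without DMSO replicate 1. SUZ12 was at 18.6, 18.1 and 25.5 FPKM in DMSO and 21.8, 21.8 and 20.8 FPKM with bryostatin, so that DMSO replicate 3 was the highest library of all. Its log2 change of 0.06 turned to -0.01 with quantile normalisation. A transcribed partial copy, SUZ12P1, was listed at 4.72 FPKM, so reads of SUZ12 may be divided between both. EZH1, the catalytic subunit of resting cells, was at 7.5, 9.10 and 6.95 FPKM in DMSO and 6.39, 8.14 and 8.82 FPKM with bryostatin, with broad overlap and a 95% interval of the log2 change from -0.34 to 0.31. By FPKM, SUZ12 stood above EZH2 in 6 libraries, and EZH2 above EZH1 in 6 libraries. Such an order depends on the length by which each gene was scaled, so it need not be the order of transcript abundance.

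Methyltransferases of lysine 9 build heterochromatin. SUV39H1, which trimethylates that lysine, was at 4.47, 4.63 and 6.71 FPKM in DMSO and 8.01, 7.08 and 7.49 FPKM with bryostatin. All bryostatin libraries lay above all DMSO libraries, and DMSO replicate 3 lay nearest to them. The log2 change was 0.46 with a standard error of 0.14 (adjusted p = 0.226 in limma), and without DMSO replicate 3 it was 0.62 with an adjusted p of 0.0386. Only 2 DMSO libraries enter that value. Its paralogue SUV39H2 averaged 7.12 ± 1.09 FPKM in DMSO libraries and 8.51 ± 0.729 in treated ones, with overlapping libraries. The enzymes of mono- and dimethylation, EHMT1 and EHMT2, had log2 changes of -0.14 and 0.10, both with overlap.

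The H3 lysine 4 methyltransferases split by gene, and the ones lower on average, KMT2A, KMT2C and KMT2D, were also the longest of them. With the length trend removed KMT2C was at -0.35, KMT2A at -0.09 and KMT2D at -0.02. KMT2C, which deposits the monomethyl mark at enhancers, was at 5.85, 4.86 and 4.67 FPKM in DMSO and 3.25, 3.58 and 3.26 FPKM with bryostatin. The groups were clearly apart, with means of 5.13 ± 0.635 and 3.36 ± 0.187 FPKM, and the log2 change was -0.49 with a standard error of 0.10 (adjusted p = 0.216 in limma). KMT2C spans 301084 bases of chromosome 7, from 152134922 to 152436005, and parts of it have near-identical copies elsewhere in the genome, so its reads are uncertain.

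KMT2A, the gene rearranged in MLL leukaemias, was at 3.84, 4.16 and 3.63 FPKM in DMSO and 3.13, 2.86 and 3.01 FPKM with bryostatin, again without overlap. Its log2 change was -0.29 with a standard error of 0.08 (adjusted p = 0.217 in limma). KMT2D, the second enhancer enzyme, was at 8.57, 8.90 and 5.88 FPKM in DMSO and 7.37, 6.30 and 6.60 FPKM with bryostatin, and DMSO replicate 3 was the lowest library. Its log2 change of -0.16 was -0.091, -0.066 and -0.329 without DMSO replicates 1, 2 and 3 in turn. The promoter enzymes SETD1A, SETD1B and KMT2B had log2 changes of 0.16, 0.19 and 0.15, each with overlapping libraries, and SETD7, which monomethylates lysine 4 and other proteins, 0.06.

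**Figure D2:**
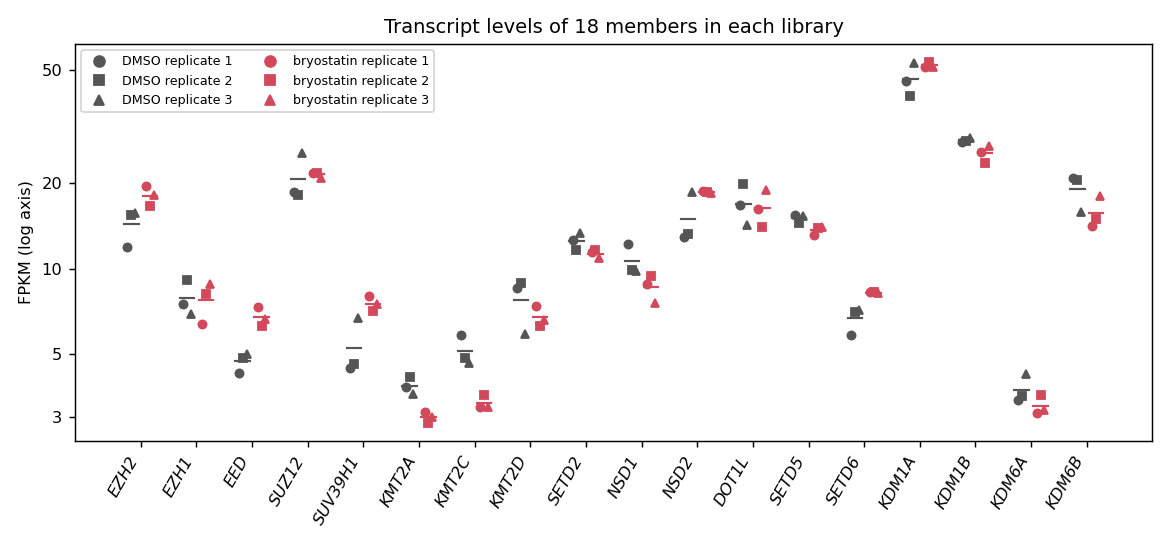
FPKM (log axis) of 18 members in each library, DMSO in grey and bryostatin in red, with the replicate as the marker shape and the group mean as a line. The groups are apart for EED, EZH2, SUV39H1, SETD6, KMT2A, KMT2C, NSD1, KDM1B and SETD5, and for NSD2 the DMSO replicate 3 triangle sits among the bryostatin points at 18.6 FPKM.

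Among the lysine 36 methyltransferases, NSD1 and NSD2 lay on opposite sides. NSD2, a dimethyltransferase activated by translocation in myeloma, was at 12.9, 13.2 and 18.6 FPKM in DMSO and 18.7, 18.6 and 18.5 FPKM with bryostatin. DMSO replicate 3 was level with the treated libraries, and the other DMSO libraries lay below. The log2 change was 0.32 (adjusted p = 0.289 in limma) and 0.48 without DMSO replicate 3, where the adjusted p was 0.0429. NSD1, whose loss causes Sotos syndrome, was at 12.2, 9.90 and 9.80 FPKM in DMSO and 8.83, 9.39 and 7.54 FPKM with bryostatin. Its groups did not overlap, and the log2 change was -0.28 with a standard error of 0.12 (adjusted p = 0.282 in limma), or -0.183 without DMSO replicate 1.

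SETD2, which adds the third methyl group to lysine 36, was at 12.6, 11.6 and 13.3 FPKM in DMSO and 11.4, 11.6 and 10.9 FPKM with bryostatin, a log2 change of -0.13 whose interval ran from -0.33 to 0.06. NSD3 was at 3.40 ± 0.0660 and 3.52 ± 0.0851 FPKM. DOT1L, the enzyme of lysine 79, which lacks a SET domain, was at 16.7, 19.8 and 14.2 FPKM in DMSO and 16.2, 14.0 and 18.9 FPKM with bryostatin, with full overlap and a log2 change of -0.04. Its gene is overlapped on the other strand by AP3D1 and PLEKHJ1, which were also expressed. With the strand setting of the read counting not given in the sources used here, reads of such partners cannot be told apart, and 11 tested members have a tested partner on the other strand.

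The H4 lysine 20 enzymes KMT5A, KMT5B and KMT5C had log2 changes of 0.19, 0.03 and 0.18, with overlap in each. KMT5A, which acts in mitosis and replication, averaged 19.6 ± 2.57 FPKM in DMSO libraries and 22.4 ± 1.83 in treated ones, and a processed copy of it, SETD8P1, was listed at 1.11 FPKM. Of the other SET-domain proteins, SETD6, which methylates the NF-kB subunit RELA, was at 5.82, 7.06 and 7.17 FPKM in DMSO and 8.26, 8.26 and 8.20 FPKM with bryostatin. The treated libraries agreed closely and lay above all DMSO libraries, with a log2 change of 0.27 and a standard error of 0.09 (adjusted p = 0.233 in limma). SETD6 is overlapped on the other strand by CNOT1, at 39.4 FPKM. SETD5 was at 15.5, 14.5 and 15.3 FPKM in DMSO and 13.1, 13.9 and 14.0 FPKM with bryostatin, lower in each treated library by a small margin (log2 change -0.13, adjusted p = 0.384 in limma). SETD3, an actin histidine methyltransferase, SETD4 and SETD9 had log2 changes of 0.03, 0.04 and 0.05, and KMT2E -0.11.

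KDM1A (LSD1), which removes methyl groups from lysine 4, had the highest mean FPKM of the members. It was at 45.7, 40.6 and 53.1 FPKM in DMSO and 51.5, 53.4 and 51.2 FPKM with bryostatin. DMSO replicate 3 lay inside the treated range, and the log2 change was 0.17 with an interval from -0.09 to 0.43. It was 0.076 without DMSO replicate 2 and 0.266 without DMSO replicate 3. KDM1B (LSD2) had the next highest mean, at 27.9, 28.2 and 28.9 FPKM in DMSO and 25.8, 23.5 and 27.1 FPKM with bryostatin. It was lower in each treated library, by a log2 change of -0.15 with a standard error of 0.08 (adjusted p = 0.377 in limma), or -0.096 without bryostatin replicate 2. The JmjC enzymes of lysine 4, KDM5A, KDM5B and KDM5C, had log2 changes of -0.11, -0.11 and 0.06.

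All 3 demethylases grouped with lysine 27 were lower on average, with none past an unadjusted p under 0.05. Of all tested genes of 4000 to 8000 bases, the class of KDM6A and KDM6B, 52.5% were higher on average. Among those of 8000 to 12000 bases, the class of KDM7A, 38.5% were. A count of 3 is too small to set apart from these shares. KDM6B (JMJD3), an inducible enzyme, was at 20.8, 20.5 and 15.8 FPKM in DMSO and 14.1, 15 and 18 FPKM with bryostatin. DMSO replicate 3 and bryostatin replicate 3 each lay within the other group's range, and the log2 change was -0.26 (adjusted p = 0.355 in limma). KDM6A (UTX) was at 3.44, 3.56 and 4.25 FPKM in DMSO and 3.09, 3.58 and 3.17 FPKM with bryostatin, again overlapping, with -0.15, or -0.075 without DMSO replicate 3. KDM7A had -0.13. The sign of all 3 was the same with TPM and quantile scaling, where the median of all tested genes was itself below 0, at -0.023 and -0.007. Median-of-ratios scaling left the changes of KDM6A and KDM6B as they were, so it is no separate check.

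Of the 8 tested demethylases of lysine 9 and lysine 36, 7 were lower on average and 0 had an unadjusted p under 0.05. Their median gene_length was 10352 bases, and of all tested genes of 8000 to 12000 bases 38.5% were higher. With the length trend removed 5 were lower and 3 higher, KDM2A and KDM3A being at 0.022 and 0.019. KDM4B had the widest spread, at 14.2, 10.3 and 8.26 FPKM in DMSO and 7.28, 9.87 and 9.82 FPKM with bryostatin. DMSO replicate 1 lay far above the other libraries, and the log2 change of -0.24 had an interval from -0.70 to 0.22. KDM4A and KDM2B had -0.20 and -0.16, KDM4C and KDM3A -0.12 and -0.07, KDM3B and KDM2A -0.05 and -0.04, and KDM8 0.06. KDM4D was below the testing level at 0.410 ± 0.108 FPKM in DMSO libraries and 0.295 ± 0.0277 in treated ones, and KDM4E and KDM4F had 0 reads in every library.

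Of 14 PRDM genes only PRDM2, PRDM4, PRDM10 and PRDM15 were tested. PRDM2 (RIZ1), with the third highest mean FPKM of the members, averaged 26.0 ± 4.57 FPKM in DMSO libraries and 23.0 ± 0.922 in treated ones. PRDM15 and PRDM4 had log2 changes of -0.09 and -0.01. PRDM10, with -0.04, was at 7.55, 6.41 and 9.95 FPKM in DMSO and 6.39, 10.1 and 6.83 FPKM with bryostatin, a spread within each group larger than the difference between them. PRDM11 and PRDM12 had 1148 and 53 reads over all libraries, below the testing level. PRDM7 and PRDM9, near-identical copies whose reads are uncertain, had 3 and 2 reads. PRDM6, PRDM8, PRDM13, PRDM14 and PRDM16 had 0 reads in every library, where 3 reads per library is the limit that a count of 0 allows, for counting error only.

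Ratios of paralogues within a library do not depend on the scaling between libraries, and 14 pairs were compared by a two-sided exact permutation test, which cannot give a p below 0.1 with 3 libraries a group. The groups did not overlap in 5 pairs, each with an exact p of 0.1 and an adjusted p of 0.28. Of all tested genes taken singly, 12.9% did not overlap on the higher and 10.7% on the lower side. KMT2A, NSD1, SUV39H1 and KDM1B, which enter these pairs, were already apart as single genes. The count of pairs is therefore not a separate result. KMT2A stood at 0.420, 0.406 and 0.381 of KMT2B in DMSO and at 0.286, 0.284 and 0.263 with bryostatin. This pair had the tightest replicates, a log2 ratio of -1.31 ± 0.07 and -1.85 ± 0.07 (SD, n = 3; exact p = 0.1). The partners differ in gene_length (31305 and 10279 bases), and such a ratio is not free of a trend with length. NSD1 stood at 0.944, 0.749 and 0.526 of NSD2 in DMSO and at 0.471, 0.505 and 0.407 with bryostatin, where DMSO replicate 3 lay next to the treated libraries. KDM1A stood at 1.64, 1.44 and 1.83 times KDM1B in DMSO and at 2, 2.27 and 1.89 times with bryostatin. The ratio of SUV39H1 to SUV39H2 was 0.663 to 0.811 in DMSO and 0.846 to 0.952 with bryostatin, and that of KDM5A to KDM5C 0.464 to 0.536 and 0.410 to 0.462.

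The ratio of EZH1 to EZH2 overlapped between the groups, at 0.631, 0.590 and 0.442 in DMSO and 0.327, 0.490 and 0.486 with bryostatin (exact p = 0.3). KMT2C stood at 0.683, 0.546 and 0.795 of KMT2D in DMSO and 0.440, 0.568 and 0.494 with bryostatin, with bryostatin replicate 2 inside the DMSO range (exact p = 0.2). KDM6A was the lesser partner of KDM6B in all libraries, at 0.165 to 0.270 in DMSO and 0.176 to 0.239 with bryostatin (exact p = 0.8).

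**Figure D3:**
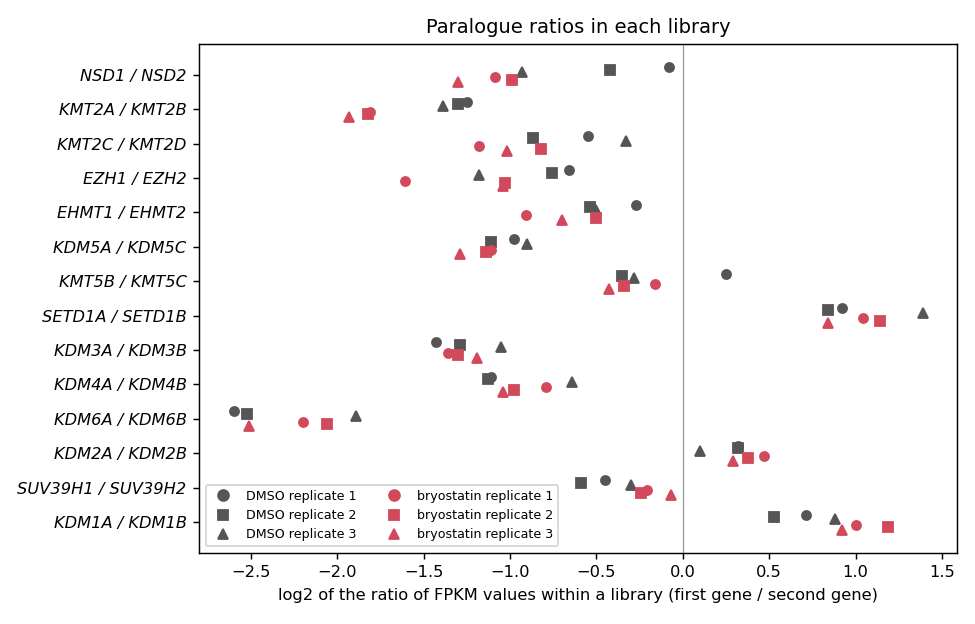
Log2 ratio of the FPKM values of 14 paralogue pairs within each library, DMSO in grey and bryostatin in red, with the replicate as the marker shape. The grey and red points of KMT2A / KMT2B form separate clusters near -1.31 and -1.85, while those of KDM6A / KDM6B are mixed.

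Many of these genes are long. The gene_length by which FPKM was scaled had a median of 8680 bases in tested members, against 4455 in all tested genes, and ran from 2711 bases in SETD9 to 31305 in KMT2A. Across the 50 tested members the log2 change had a rank correlation of -0.55 with gene_length and -0.59 with the span of the gene on the chromosome. Across all 11071 tested genes the values were -0.23 and -0.25, and across the 9265 protein-coding ones -0.31 and -0.33. Across the 43 members left without the 7 at an unadjusted p under 0.05 in limma they were -0.37 and -0.50. With DMSO replicates 1 to 3 each set against the bryostatin mean, the members' correlation with gene_length was -0.58, -0.52 and -0.23. Over all tested genes it was then -0.18, -0.12 and -0.26. Genes are not independent replicates and all points share the same 6 libraries, so these are descriptions without a test.

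By length class, all tested genes of 2000 to 4000 bases had a median log2 change of 0.070, and those of 12000 bases or more -0.104. The 3 members of the first class, SUV39H1, SUV39H2 and SETD9, were all higher on average. Of the 14 members in the long class 11 were lower, with a median of -0.128, near the class median. In that class 25.7% of all 568 genes were higher on average and 19.0% lay lower at an unadjusted p under 0.05, among them KMT2C, KMT2A and NSD1. NSD2, with a length of 19776 bases, stood apart from its class at 0.32. EED, at 7016 bases, lay in the class of 4000 to 8000 bases, whose median was 0.009.

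With each library's trend on gene_length removed, the rank correlation over members was -0.27 and 0 members passed. EED was at 0.45, SUV39H1 at 0.40, EZH2 at 0.29 and SETD6 at 0.25, little moved. KMT2C was at -0.35, whereas KMT2A was at -0.09 and NSD1 at -0.17, both more than 1.5 times nearer to 0 than before. NSD2 was at 0.46 and KMT2D at -0.02. At an unadjusted p under 0.05 there were then 6 members at higher and 1 at lower levels, against 8.28% and 7.66% of all tested genes, including the same 4 higher members and KMT2C. Among the 14 paralogue pairs the longer gene was relatively lower with bryostatin in 11, the exceptions being KMT2C with KMT2D, SETD1A with SETD1B, and NSD1 with NSD2. Some lengths were close on both sides of this count, as in KDM6A and KDM6B (7139 and 7258 bases) and KMT2C and KMT2D (20114 and 20485). Some log2 differences were near 0 on both sides, as in KDM3A with KDM3B (-0.03) and SETD1A with SETD1B (-0.05). The count was not tested. The long and the short partner of KMT2A and KMT2B measure 31305 and 10279 bases. Their log2 changes were -0.285 and 0.152 as deposited, and -0.094 and 0.209 with the length trend removed, so they lay nearer to each other.

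**Figure D4:**
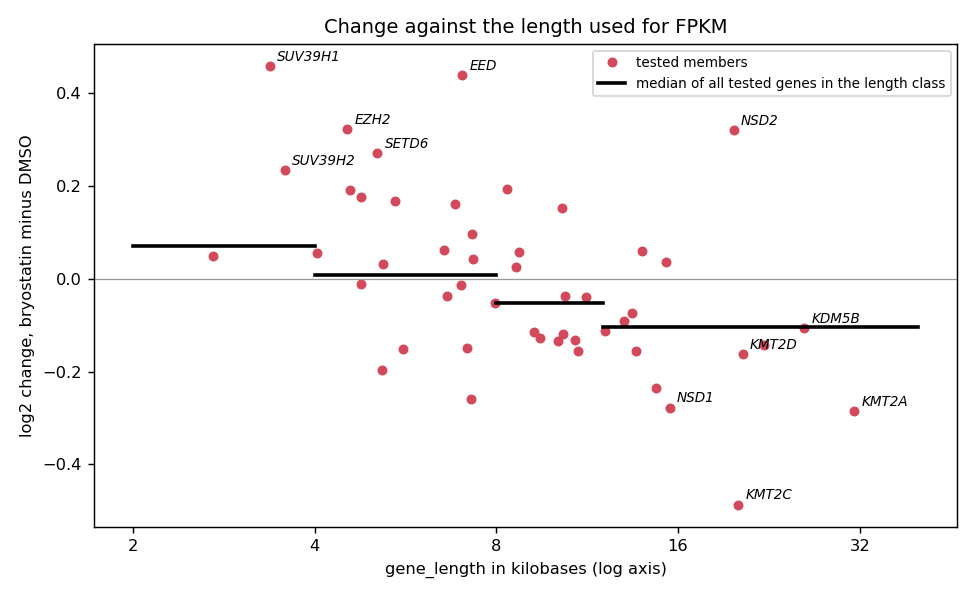
Log2 change of the tested members other than KDM5D (red points) against gene_length in kilobases (log axis), with the median of all tested genes in each length class of 2000 bases or more as black bars. The bars descend from 0.070 to -0.104, and NSD2 and EED lie far above the bar of their class, KMT2C and KMT2A below it.

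Partners of these enzymes were described from lists of related genes, and no gene in them passed an adjusted p of 0.05 in limma. For comparison, 53.9% of all tested genes were higher on average, while an unadjusted p under 0.05 was reached by 10.5% on the higher and 7.18% on the lower side. Of 8 cofactors of Polycomb repressive complex 2, 7 were higher on average and 3 had an unadjusted p under 0.05, all higher, with a median log2 change of 0.19. RBBP7, a histone-binding subunit, averaged 32.5 ± 3.67 FPKM in DMSO libraries and 40.2 ± 2.10 in treated ones, EPOP at 15.6 ± 1.15 and 18.6 ± 1.13, and PHF19, which binds methylated lysine 36, at 21.8 ± 2.84 and 28.1 ± 4.62. With quantile normalisation 6 of the 8 were higher and 0 had an unadjusted p under 0.05, and of the 4 core subunits 2 were higher and 2 lower. Set against the average over 6 libraries, the mean of the core subunits was -0.24, -0.06 and -0.01 in DMSO libraries and 0.10, 0.07 and 0.13 in treated ones on the log2 scale. That of the cofactors was -0.09, -0.07 and -0.08 in DMSO libraries and 0.12, 0.02 and 0.10 in treated ones, so the libraries of both groups were apart in both lists.

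Cofactors of the lysine 4 complexes, some shared and some particular to 1 kind of complex, were higher on average in 10 of 11 genes. Their median log2 change was 0.22, although KMT2A and KMT2C lay lower. WDR5, the scaffold that binds the catalytic subunit, had means of 25.4 ± 2.27 FPKM in DMSO and 31.8 ± 0.522 in treated cells, CXXC1, the CpG-binding subunit of the SETD1 complexes, at 13.4 ± 2.26 and 17.4 ± 0.937, and menin (MEN1), a partner of KMT2A, at 19.4 ± 2.15 and 23.6 ± 1.33. Of 7 readers of lysine 9 methylation 5 were higher on average, and 4 had an unadjusted p under 0.05, a count that was 2 with TPM and 2 with quantile normalisation. UHRF1, which couples that mark to DNA methylation at replication, had means of 13 ± 4.85 FPKM in DMSO and 22.0 ± 3.96 FPKM in treated cells, and the HP1 genes CBX3 and CBX1 had log2 changes of 0.44 and 0.25. Of 14 other tested lysine methyltransferases and demethylases 8 were higher and 6 lower on average. The lysine 36 enzyme ASH1L and the JmjC protein JMJD1C had -0.35 and -0.30, and SMYD2 0.20.

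Polycomb repressive complex 1 subunits were mixed, with 9 higher and 6 lower of 15 tested, CBX2 having a log2 change of 0.37 and PCGF2 and PHC3 -0.51 and -0.23. Of 8 tested partners of KDM1A 5 were lower, and PHF21A, the reader of unmethylated lysine 4, averaged 6.53 ± 0.684 FPKM in DMSO libraries and 5.13 ± 0.883 in treated ones. ZMYM2 and ZMYM3 had -0.20 and -0.18. Arginine methyltransferase genes were higher in 7 of 9, PRMT3, PRMT7 and PRMT6 having 0.21, 0.26 and 0.19. Of 12 genes of methyl donor and cofactor metabolism 7 were higher and 5 lower. IDH2, which makes the 2-oxoglutarate that JmjC enzymes use, was at 35.9, 30.8 and 34.5 FPKM in DMSO and 23.9, 24.9 and 24.5 FPKM with bryostatin, apart in all libraries (log2 change -0.45, adjusted p = 0.216 in limma). MTHFD1 of the folate cycle had 0.36. With quantile normalisation that metabolic list had 5 higher and 7 lower, and with TPM 6 and 6.

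Levels of cell-cycle genes differed among the DMSO libraries, as did those of several members. All 22 on the list were higher on average with bryostatin, against 53.9% of all tested genes. At an unadjusted p under 0.05 there were 13, against 10.5% of all tested genes in that direction, with 0 past the adjusted one in limma and a median log2 change of 0.57. Without DMSO replicate 3 there were 21 with a median of 0.87, and with quantile normalisation 8. The mean deviation of the 22 genes was -0.64, -0.42 and 0.21 in DMSO libraries and 0.45, 0.19 and 0.21 in treated ones. DMSO replicate 3 was thus level with treated libraries, as it was for NSD2, KDM1A and the lysine 9 methyltransferases, whose group mean was -0.13, -0.21 and 0.09 in DMSO libraries and 0.06, 0.15 and 0.03 in treated ones. For EED, KMT2C and KMT2A that library lay with the other DMSO libraries. The list's named genes AURKB, BIRC5 and E2F1 had log2 changes of 0.79, 0.78 and 0.59. The part of cell-cycle state in the members' values was not tested. A change in the share of cells in a state and a change in RNA per cell cannot be told apart in such libraries.

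**Figure D5:**
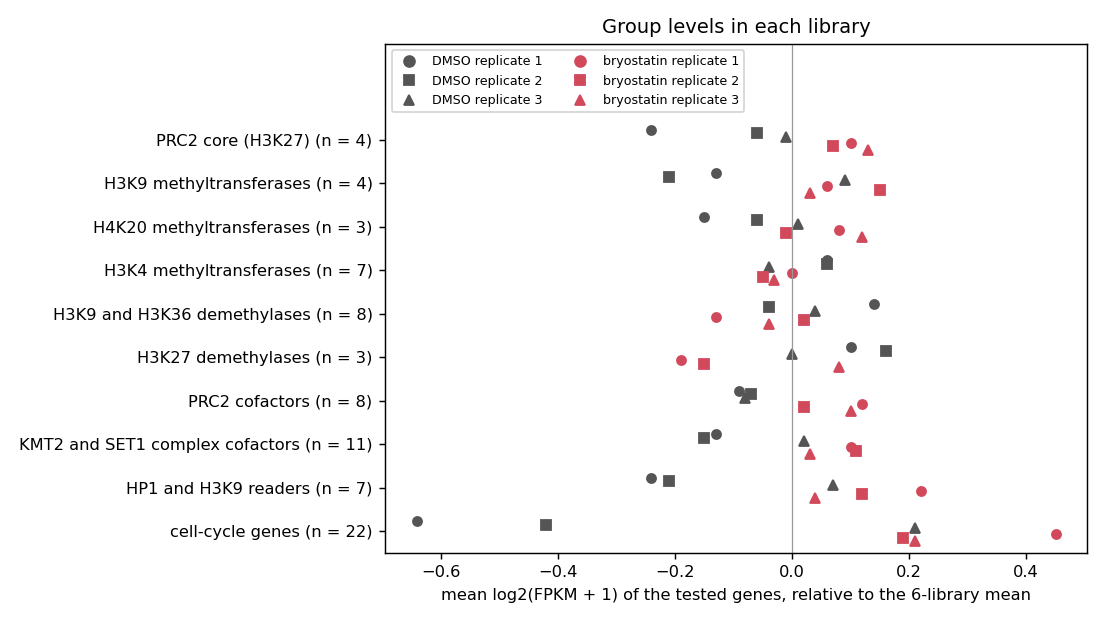
Mean log2(FPKM + 1) of the tested genes of each group relative to the mean of the 6 libraries, DMSO in grey and bryostatin in red, with the replicate as the marker shape. The grey triangle, DMSO replicate 3, lies at 0.21 among the red points for cell-cycle genes and at -0.01 and -0.08, left of the red points, for the core and cofactors of Polycomb repressive complex 2.

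Without DMSO replicate 3, 267 genes passed an adjusted p of 0.05 in limma, 2.41% of those tested, and 2 of the 50 members did, SUV39H1 and NSD2. At an unadjusted p under 0.05 there were 10 members at higher and 5 at lower levels, against 15.6% and 10.2% of all genes. These included the same 4 higher and 3 lower members as with all libraries. The added ones were NSD2, SUV39H2, SUZ12, SETD1A, KMT5A and KDM1A, all higher, and KMT2D and KDM6B, both lower. EED and KMT2C were at 0.475 and -0.54, with adjusted p = 0.0595 and 0.0547 in limma. Leaving out a library because it differs from its group removes spread, so these values describe a contrast of DMSO replicates 1 and 2 with bryostatin.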

How the data were processed

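The deposited values are FPKM, scaled by the authors to gene length and library size, for 58735 genes, with gene_length in bases as another value per gene, per the file headers. Per the submitters' processing notes, the genome was hg38 and the tools included featureCounts 1.5.0-p3, HISAT2 2.0.5, CASAVA and DESeq2 1.20.0. The strand setting, filters and annotation release were not given in the sources used here, but the coordinates of all 63 members equal those of GENCODE release 29. Dividing FPKM times gene_length by each library's smallest step returned whole reads (tolerance 0.01 reads) for 100% of values, from which depths were taken. Values entered limma 3.58.1 (R 4.3.3, intensity trend) as log2(FPKM + 1) where the mean reached 1 FPKM, with p adjusted by Benjamini-Hochberg over all 11071 genes at 0.05. The fit was tested on simulated data. Libraries were grouped by treatment label. No pair of libraries agreed within sampling noise, the chi-square of reads being at least 13.5 per tested gene.

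The members, lists, pairs and promoter words were chosen with earlier results of these data known. Values in every library are given for members with an unadjusted p under 0.05 or without overlap, for a fixed set of 12 genes, and for KDM4B, PRDM10 and IDH2, added after their values were seen. From each related list the 3 genes with the smallest p are named, apart from a few genes that are not reported here. The alternatives tried were the pseudocount, filter, scaling, moderation, restriction to protein-coding genes, a block for the replicate number, voom weights on recovered reads, removal of the length trend by loess (span 0.5) and each library left out.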

Additional observations from a re-analysis of the deposited data

How the results depend on the processing

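No member passed in any alternative that kept all libraries, and leaving out 1 library gave 0 to 2 members, 2 only without DMSO replicate 3. Over all genes 0 passed, 1 with a pseudocount of 0.1, and 0 to 267 without 1 library, 267 being without DMSO replicate 3 and 1 without DMSO replicate 2. Members at an unadjusted p under 0.05 and higher numbered 2 to 10 without 1 library (2 without DMSO replicate 1, bryostatin replicate 1 or bryostatin replicate 3), and lower ones 2 to 5. Lower ones were 1 with a filter of 5 FPKM, 1 with the length trend removed and 6 with quantile normalisation. The median of members was -0.068 with TPM, where that of all genes went from 0.018 to -0.023, and 0.011 with the length trend removed, which also gave the rank correlation of -0.27 with length. The cause of these shifts was not tested.

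With the replicate number as a block, 0 members passed and 2 were higher at an unadjusted p under 0.05. Same-numbered libraries did not deviate together, the correlations of their deviations being -0.292, -0.322 and -0.106, and no library correlated best with its own number, so the numbers were not taken as a pairing.

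Near-zero changes turned sign. DOT1L was at 0.029 with the length trend removed and at -0.152 to 0.076 without 1 library, EZH1 at -0.099 to 0.106 and SUZ12 at -0.021 to 0.214 without 1 library, and SUZ12 at -0.013 with quantile normalisation. The other members followed in every alternative kept their sign. SUV39H1 and NSD2, given above, passed only without DMSO replicate 3. At the lowest tested level, SETD9 had on average 79.5 reads in a library.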
